A study of Mus musculus with 8 samples.

Results

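The 4 microRNAs (miRNAs) described here are mmu-miR-219, mmu-miR-338-3p, mmu-miR-338-5p and mmu-miR-138, out of 611 mouse miRNAs on the array. They were taken by name, with all 10 of their probes, and their level was followed in primary mouse oligodendrocytes, the cells that wrap axons in myelin. Total RNA from 8 cultures was labelled with Cy3 and hybridised to Agilent miRNA arrays, 1 culture per array. There were 3 cultures at day 0 and 2 at day 1, both labelled immature, and 3 at day 6, labelled mature. All 8 came from C57BL/6J mice carrying CNP-Cre, a Cre recombinase driven by the promoter of a gene expressed in the oligodendrocyte lineage, so no group without Cre was compared. The cells of every group were shaken off a primary culture and kept untreated on poly-L-lysine in DMEM with B27, horse serum and thyroid hormones. The series text calls the samples independent, but the sources used here do not say whether the cultures came from different animals. A p-value therefore covers the spread among these cultures alone, which may be technical. The labels' day numbers are used; the series text counts the immature days from another start.

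A miRNA pairs with messenger RNAs mainly through its seed, bases 2 to 8 from its 5′ end, and lowers the output of those messengers. In the mouse, miR-219 and miR-338 are known as miRNAs that rise as oligodendrocyte precursors leave the cell cycle, and both repress factors that hold precursors immature, among them PDGFRA, SOX6 and HES5. miR-138 is known to rise with them early in differentiation.

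The mature sequences are shown because the 4 miRNAs are read by separate probes, and the likeness of their sequences bears on whether those readings are separate. Capitals mark the seed. The array's older names miR-219 and miR-138 stand for miR-219a-5p and miR-138-5p.
mmu-miR-219: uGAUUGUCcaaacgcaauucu
mmu-miR-338-3p: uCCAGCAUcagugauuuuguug
mmu-miR-338-5p: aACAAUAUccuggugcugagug
mmu-miR-138: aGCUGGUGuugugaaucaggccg
All 4 matched an entry of the RefSeq table (build GRCm38.p6). Their seeds differ, and no other of the 1679 mature mouse miRNA names in that table shares any of the 4 seeds. The longest run of bases that 2 of them have in common is 6 bases, between miR-338-5p and miR-138. The probe sequences were not used here.

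The genes lie on 5 places of the genome, none beside another. miR-219 is made from Mir219a-1 (chr17:34025052-34025072, minus strand) and from Mir219a-2 (chr2:29845689-29845709, minus strand), which give the same mature sequence, so a probe cannot tell which gene was active. Mir219a-2 lies within the span of the protein-coding gene Cercam. miR-138 likewise comes from Mir138-1 (chr9:122682898-122682920, plus strand) and Mir138-2 (chr8:94324312-94324334, plus strand), and Mir138-2 lies within the span of Nup93. Both arms of miR-338 are cut from the single hairpin of Mir338, with miR-338-5p at chr11:120014816-120014837 and miR-338-3p at chr11:120014781-120014802, on the minus strand and within the span of Aatk. The Mir338 hairpin is shown with its arms in capitals, miR-338-5p first and miR-338-3p second.
Mir338: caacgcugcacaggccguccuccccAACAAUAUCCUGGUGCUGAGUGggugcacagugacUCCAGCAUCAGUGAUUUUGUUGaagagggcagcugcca
The hairpins of the miR-219 genes are shown in the same way, to set the shared arm beside flanks that differ.
Mir219a-1: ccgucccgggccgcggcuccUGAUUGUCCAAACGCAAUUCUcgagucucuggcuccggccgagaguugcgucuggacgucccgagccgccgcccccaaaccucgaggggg
Mir219a-2: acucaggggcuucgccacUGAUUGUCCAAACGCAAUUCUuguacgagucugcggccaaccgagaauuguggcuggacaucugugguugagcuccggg

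Signals below are background-subtracted fluorescence intensities of a miRNA's brightest probe, brought to a common 75th percentile, taken on each array over the 91 probes that every array detected. They have no absolute unit, can be negative, and are not compared between miRNAs. A probe counted as detected where 0.5 or more of its spots stood well above background. The array of day 0 replicate 1 stood apart: its negative controls had a median absolute deviation of 30.2 against 2.54 to 3.88 on the other arrays, it detected 61 mouse miRNAs against 150 to 218, and its weakest detected probe had a scaled signal of 200.4 against 11.8 to 24.4. A miRNA not detected on it may therefore have been present at levels that the other arrays would measure. The main differences between days, the spread and the correlations among members are given with and without it. The deviations from day means, the miRNAs of similar pattern, the lineage list and the sums for other cell types are given only with it. All arrays lay on 1 slide with 1 scan date, and no spot was saturated.

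miR-338-3p was detected on 7 of 8 arrays. Its scaled signal was 131, 2962 and 399 in day 0 replicates 1, 2 and 3, 203 in day 1 replicate 2 and 2293 in day 1 replicate 1, and 2383, 744 and 1941 in day 6 replicates 1, 2 and 3. The highest value of all thus came from an immature culture of day 0, while the lowest values also came from immature cultures and the mature ones lay between 744 and 2383. The value of 131 was not well above background. Its second probe gave 37.0, 954 and 133 at day 0, 818 and 69.1 at day 1, and 885, 240 and 644 at day 6, in replicate order, and so had the same arrays at its top and its bottom.

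miR-219 was detected on 6 of 8 arrays, among them all 3 of day 6. Its scaled signal was -19.1, 283 and 34.2 in the 3 cultures of day 0, 105 and 4.08 at day 1, and 82.2, 55.5 and 144 at day 6, in replicate order. Day 0 replicate 2 was again the highest array, and the mature cultures again lay inside the range of the immature ones. The signals of day 0 replicate 1 and day 1 replicate 2 were not well above background and were raised to the floor of 18.4 before taking log2.

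miR-138 was detected on the same 6 arrays. The array software's own detection flag per miRNA also counted it as detected on day 1 replicate 2. Its scaled signal was -4.99, 200 and 53.6 at day 0, 114 and 19.3 at day 1, and 115, 61.7 and 133 at day 6, in replicate order. Day 0 replicate 2 was highest here too, and day 1 replicate 1 lay within the range of the mature cultures.

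miR-338-5p, the other arm of the Mir338 hairpin, was detected on 3 of 8 arrays, 1 of each day: day 0 replicate 2, day 1 replicate 1 and day 6 replicate 1. By the array software's own flag per miRNA it was detected on every array but day 0 replicate 1. The scaled signal of its brightest probe was 17.0, 23.9 and 8.06 at day 0, 24.4 and 17.4 at day 1, and 29.5, 13.5 and 19.6 at day 6, in replicate order. With 4 of 8 arrays at the floor, its differences between days are bounded by the floor. Of its 4 probes, 2 were detected on no array and 1 on 2 arrays.

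**Figure D1:**
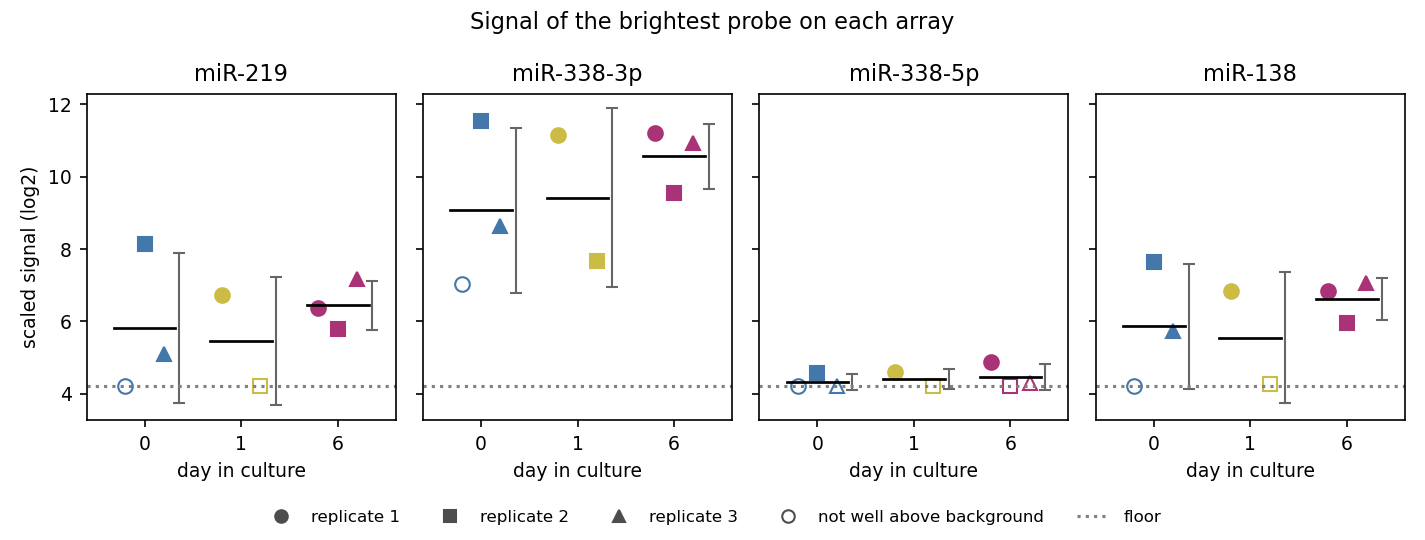
Scaled signal (log2, vertical axis) of the brightest probe of each miRNA by day in culture, 1 point per array; shapes give the replicate, open points were not well above background, the dotted line is the floor (4.20), black bars are day means and grey bars are ± 1 SD (n = 3, 2 and 3). In miR-219, miR-338-3p and miR-138 the day 6 points lie inside the range of the day 0 points, with day 0 replicate 2 highest.

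Whether the 4 miRNAs were higher in mature than in immature oligodendrocytes was asked first. Each had a higher mean on day 6, but none differed beyond the spread between cultures. On the log2 scale, miR-338-3p averaged 9.07 ± 2.28 (SD, n = 3) on day 0, 9.41 ± 2.48 (SD, n = 2) on day 1 and 10.56 ± 0.90 (SD, n = 3) on day 6. For miR-219 the means were 5.81 ± 2.07 (SD, n = 3), 5.46 ± 1.78 (SD, n = 2) and 6.44 ± 0.69 (SD, n = 3). miR-138 averaged 5.86 ± 1.72 (SD, n = 3), 5.55 ± 1.81 (SD, n = 2) and 6.61 ± 0.59 (SD, n = 3). miR-338-5p stayed close to the floor, with means of 4.33, 4.41 and 4.46. In miR-219, miR-338-3p and miR-138, 2 of the 5 immature arrays lay above the lowest mature one. For miR-338-5p the lowest mature array stood at the floor, where values have no order, and the 2 immature arrays that detected it lay above it.

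A limma model with 1 mean per day, fitted over 199 mouse miRNAs detected on at least 3 arrays with Benjamini-Hochberg adjustment, called 4 miRNAs, or 2.01% of those tested, between day 6 and the mean of days 0 and 1. It called 0 of the 4 members. The log2 difference of miR-338-3p, mature minus immature, was 1.32 ± 1.11 (SE), with a 95% interval from -1.24 to 3.87 and a limma adjusted p of 0.723. That of miR-138 was 0.91 ± 0.83 (SE), from -1.003 to 2.81, with a limma adjusted p of 0.793. For miR-219 it was 0.80 ± 0.93 (SE), from -1.34 to 2.95, with a limma adjusted p of 0.826. For miR-338-5p it was 0.09 ± 0.25 (SE), from -0.48 to 0.67, with a limma adjusted p of 0.893, with 4 of 8 arrays at the floor. The intervals of miR-338-3p, miR-138 and miR-219 are wide enough to hold a rise of several log2 units as well as a fall. Without day 0 replicate 1 the log2 differences were smaller, at 0.81 for miR-338-3p, 0.49 for miR-138, 0.40 for miR-219 and 0.0612 for miR-338-5p, and limma adjusted p ran from 0.713 to 0.908; it then called 11 of 199 miRNAs. A two-sided exact permutation test over all arrays compared the mean of the 3 mature arrays with the mean of the 5 immature arrays pooled. This differs slightly from the limma comparison, which averages the means of days 0 and 1. The exact permutation test gave p between 0.321 and 0.643, where the smallest p it allows is 0.0179.

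Between day 6 and day 0, limma called 8 of 199 miRNAs (4.02%) and 0 of the 4 members. The log2 difference was 1.49 ± 1.23 (SE) for miR-338-3p, 0.75 ± 0.92 (SE) for miR-138, 0.63 ± 1.04 (SE) for miR-219 and 0.13 ± 0.28 (SE) for miR-338-5p. Without day 0 replicate 1, the array of high background, miR-219 and miR-138 were slightly lower on day 6, with log2 differences of -0.18 and -0.0803, and that of miR-338-3p was 0.47. The exact permutation test gave p between 0.4 and 0.7 over all arrays, and 3 arrays against 3 allow no p under 0.1.

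Between day 6 and day 1, limma called 0 of 199 miRNAs (0%), with 17 at an unadjusted p under 0.05, of which 0 were members. The log2 difference was 1.15 ± 1.38 (SE) for miR-338-3p, 1.06 ± 1.03 (SE) for miR-138, 0.98 ± 1.16 (SE) for miR-219 and 0.05 ± 0.31 (SE) for miR-338-5p. All 4 turned negative without day 1 replicate 2, with -0.60, -0.22, -0.28 and -0.15, since day 1 replicate 1 then stands alone. Between day 1 and day 0, limma called 3 of 199 miRNAs (1.51%) and 0 members, with log2 differences of 0.34 ± 1.38 (SE) for miR-338-3p, -0.31 ± 1.03 (SE) for miR-138, -0.35 ± 1.16 (SE) for miR-219 and 0.08 ± 0.31 (SE) for miR-338-5p. The signs of this last comparison also rested on single arrays. Without day 0 replicate 1, miR-338-3p stood at -0.67, miR-138 at -1.14, miR-219 at -1.16 and miR-338-5p at 0.0158, while without day 0 replicate 2 miR-219 stood at 0.81 and miR-138 at 0.58.

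**Figure D2:**
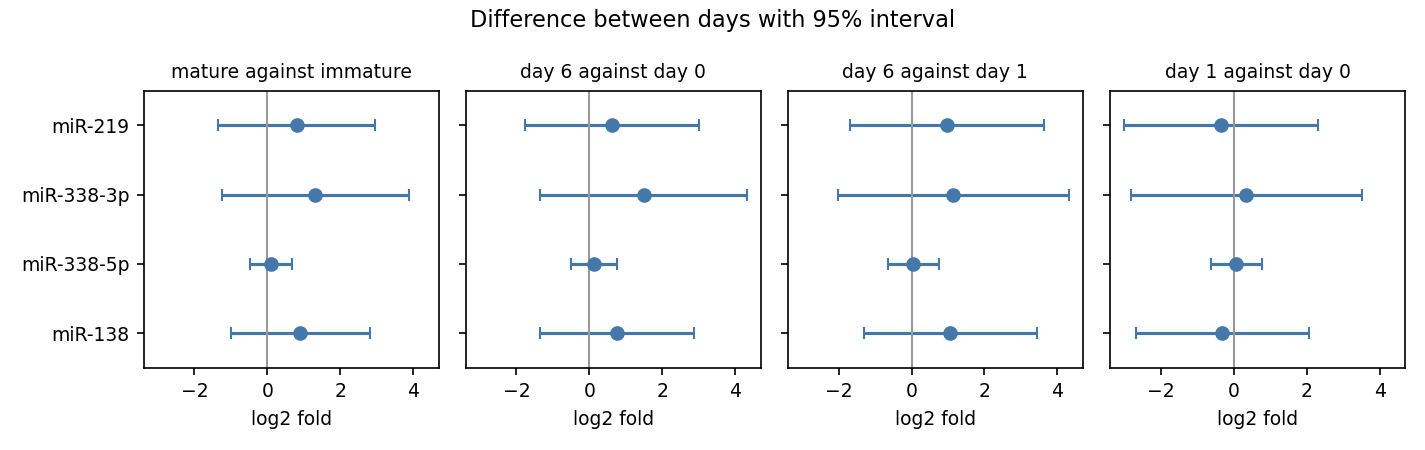
Log2 difference between days (horizontal axis) for each miRNA in 4 comparisons, first-named group minus the second; points are limma estimates and bars 95% intervals. All 16 intervals hold 0, and those of miR-338-5p are narrow because 4 of its 8 arrays stand at the floor.

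The spread between cultures of the same day was the main feature of miR-338-3p, miR-219 and miR-138. The SD between arrays of a day, pooled over the 3 days on the log2 scale, was 1.90 for miR-338-3p, 1.59 for miR-219 and 1.41 for miR-138, against a median of 0.435 over the 199 tested miRNAs. These were the 3 largest of the 199. The next in order were miR-328 at 1.37, miR-449a at 1.35 and miR-204 at 1.28, so the gap to miR-138 was small. Without day 0 replicate 1, miR-338-3p stayed first at 1.73, miR-219 had rank 3 at 1.48 and miR-138 rank 5 at 1.201, behind miR-449a at 1.49 and miR-124, a miRNA of neurons, at 1.21. miR-338-5p had an SD of 0.299 and rank 147, with 4 of 8 arrays at the floor. With the normexp background correction, 9 other miRNAs were more variable than the least variable of the 3.

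The range among immature cultures was wide. For miR-338-3p, the highest immature array was 14.6-fold above the lowest of the 4 immature arrays that detected it, while the 3 mature arrays spanned 3.21-fold. On day 0 replicate 1 it was not well above background, so no fold is given against that array. For miR-219 and miR-138, leaving that array out as well, day 1 replicate 2 was lowest and did not detect them. Set against the weakest probe detected on that array, 24.4, the highest immature array was at least 11.6-fold higher for miR-219 and at least 8.19-fold higher for miR-138, where the mature arrays spanned 2.59-fold and 2.15-fold. Whether immature cultures vary more than mature ones was not tested. The spots of a probe within an array varied far less: the coefficient of variation between spots on arrays where the brightest probe was detected was 4.02% to 8.53% for miR-338-3p, 2.61% to 7.99% for miR-219 and 3.30% to 7.12% for miR-138.

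**Figure D3:**
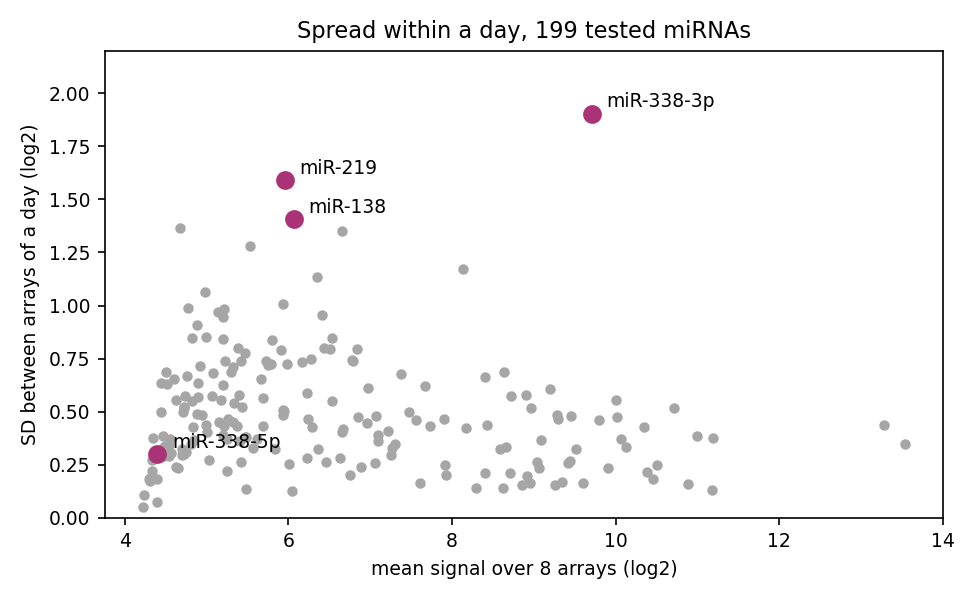
SD between arrays of a day (log2, vertical axis) against the mean signal over 8 arrays (log2, horizontal axis), 1 point per tested miRNA (199), members in purple. miR-338-3p, miR-219 and miR-138 have the 3 largest SDs (1.90, 1.59 and 1.41), and miR-338-5p lies near the floor with an SD of 0.299.

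miR-338-3p, miR-219 and miR-138 followed a similar order over the arrays that detected them. Day 0 replicate 2 was highest in all 3, then came day 1 replicate 1 with day 6 replicates 1 and 3 in varying order. Day 6 replicate 2 followed, then day 0 replicate 3. Day 1 replicate 2 was lower still, though by the rule used here only miR-338-3p was detected on it. Day 0 replicate 1 gave the lowest values but has no measured place in this order. None of the 3 was detected on it, and its weakest detected probe stood at 200.4. The correlations across 8 arrays include both of these arrays. Across the 8 arrays, Pearson's r of the log2 signals was 0.975 between miR-338-3p and miR-138 (exact permutation p = 0.000223), 0.970 between miR-219 and miR-138 (exact permutation p = 9.92e-05) and 0.944 between miR-219 and miR-338-3p (exact permutation p = 0.000397). Adjusted by Benjamini-Hochberg over these 3 pairs, the exact permutation p-values were 0.000335, 0.000298 and 0.000397. Spearman's rho was 0.929, 0.970 and 0.898 for the same pairs, with exact permutation p of 0.00223, 0.000595 and 0.00516, or 0.00335, 0.00179 and 0.00516 after that adjustment. Leaving out the 2 arrays farthest from the median of the first-named miRNA gave r of 0.935, 0.966 and 0.952. miR-338-5p, with 4 of 8 arrays at the floor, was left out of these pairs.

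The relation was also present within days, in values that include day 0 replicate 1 and day 1 replicate 2. miR-219 and miR-138 were not detected on those arrays, so the within-day values rest in part on signals at or near the floor. Taken as deviations from each day's mean, r was 0.991 between miR-338-3p and miR-138, 0.970 between miR-219 and miR-138 and 0.964 between miR-219 and miR-338-3p. Permuting arrays within days, with 72 orders in all, gave exact p of 0.0278, 0.0139 and 0.0278, of which 0.0139 is the smallest they can give. Over the 6 arrays on which all 3 were detected, r was 0.935, 0.970 and 0.870 in the same order, given without a test because the arrays were chosen by the signal. On those 6 arrays the log2 difference between miR-219 and miR-138 moved over a span of 1.15. That between miR-219 and miR-338-3p moved over 1.47 and that between miR-338-3p and miR-138 over 1.48. The log2 signals themselves ran from 5.10 to 8.14 for miR-219, from 8.64 to 11.53 for miR-338-3p and from 5.74 to 7.64 for miR-138 on these arrays.

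**Figure D4:**
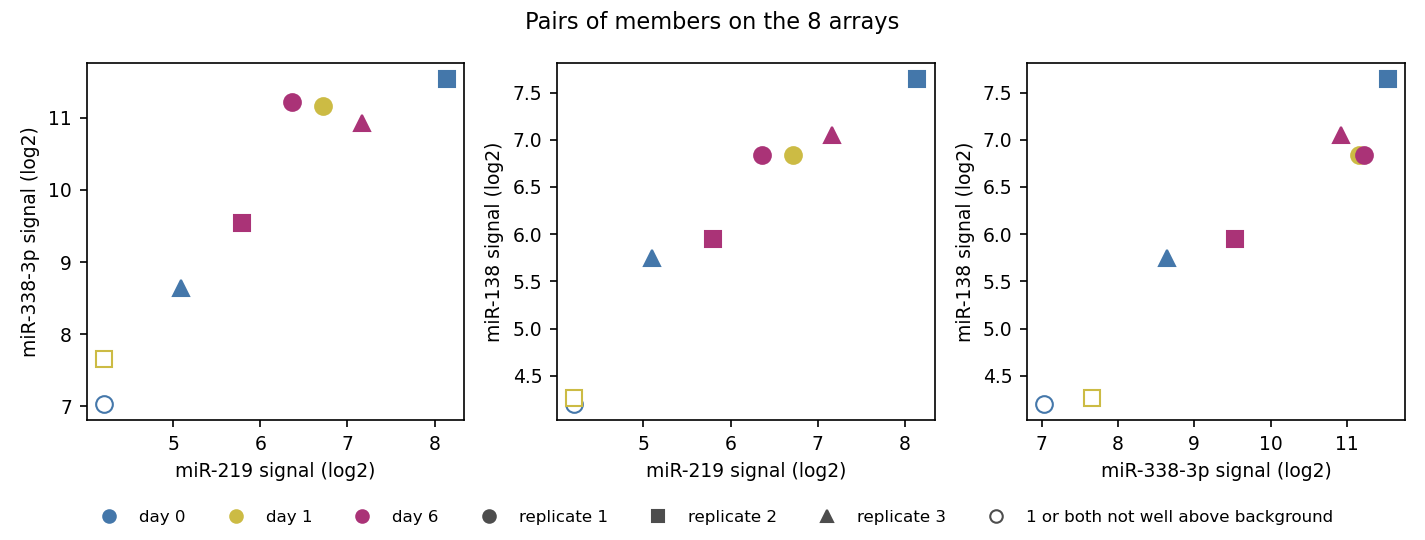
Log2 signal of 1 miRNA against another on the 8 arrays, for the 3 pairs of miR-219, miR-338-3p and miR-138; colours give the day, shapes the replicate, and open points are arrays on which 1 or both were not well above background. The points of all days lie along 1 line in each panel (r from 0.944 to 0.975), with day 0 replicate 2 at the top.

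The quality of the arrays was set beside this order. No relation had an adjusted exact permutation p under 0.05, and 8 arrays cannot exclude one. Across the 8 arrays, Pearson's r with the number of mouse miRNAs detected was 0.523 for miR-219, 0.615 for miR-338-3p and 0.646 for miR-138, with exact permutation p from 0.0705 to 0.185. With the median absolute deviation of the negative controls it was -0.500, -0.604 and -0.583, with exact permutation p from 0.0913 to 0.265. Adjusted by Benjamini-Hochberg over these 6 relations, the exact permutation p ran from 0.142 to 0.265. Spearman's rho ran from 0.357 to 0.476 with the number detected and from -0.240 to -0.0476 with the deviation, with exact permutation p from 0.243 to 0.935, or 0.779 to 0.935 after that adjustment. Without the 2 arrays farthest from the median, r was 0.672 to 0.738 with the number detected and -0.0757 to 0.0712 with the deviation, and without day 0 replicate 1 alone 0.178 to 0.331 and 0.0772 to 0.307. Without that array, r was 0.962 between miR-338-3p and miR-138, 0.965 between miR-219 and miR-138 and 0.931 between miR-219 and miR-338-3p. The part of RNA quality and of the makeup of each culture in the shared order was not tested. Less RNA of these miRNAs per cell and fewer oligodendrocytes in a culture cannot be told apart in bulk RNA.

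Other miRNAs had a similar pattern over the arrays. Among the 140 other tested miRNAs without star strands that were detected on at least 6 arrays, the median r with miR-219 was 0.139, with miR-338-3p 0.171 and with miR-138 0.179. The 3 most like miR-219 were let-7i (r = 0.969), miR-33 (r = 0.939) and miR-362-3p (r = 0.938). Those most like miR-338-3p were miR-185 (r = 0.970), miR-148b (r = 0.967) and miR-384-5p (r = 0.961), and those most like miR-138 were miR-15a (r = 0.973), miR-362-3p (r = 0.971) and let-7i (r = 0.960). These correlations over 8 arrays are descriptions. let-7i and miR-15a, detected on all 8 arrays, moved between 8.55 and 9.54 and between 8.62 and 9.77 on the log2 scale. The other named miRNAs had their lowest arrays at the floor of 4.20 and their highest between 4.96 and 5.68, so their full range was not measured. With the members themselves counted among 142 candidates, miR-138 was the closest match of both miR-219 and miR-338-3p, and miR-338-3p was the closest match of miR-138. miR-338-3p had rank 3 for miR-219, and miR-219 had rank 6 for miR-338-3p and rank 4 for miR-138, so some of the miRNAs named above matched more closely than these members did.

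The label of the cells was set against miRNAs of other cell types. Of the 4 members, miR-219, miR-338-3p and miR-138 were each detected on all 3 arrays of day 6, and miR-338-5p on 1 of them. The 7 neuronal miRNAs, led by miR-124, had a summed scaled signal of 630 to 742 on days 0 and 1 and of 437 to 1608 on day 6, with up to 6 detected on an array. All 4 astrocyte miRNAs, the miR-29 family and miR-26a, which are also made in many other cells, were detected on every array, with sums of 1827 to 2773 on days 0 and 1 and 2286 to 2685 on day 6. The 6 miRNAs of microglia and leukocytes summed to between 1413 and 2677 on days 0 and 1 and between 1241 and 2064 on day 6, with up to 5 detected. The 5 of fibroblasts and mural cells summed to 77.9 to 125 on days 0 and 1 and 74.2 to 427 on day 6, with up to 4 detected. The sum of 125 came from day 0 replicate 1, on which 0 of the 5 were detected. Neither the 2 endothelial nor the 3 erythroid miRNAs were detected on any array. The part of these cells in the members' values was not tested.

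The other 16 miRNAs listed for the oligodendrocyte lineage gave no call. Of these 16, 13 were tested, and limma called 0 in either direction in each of the 4 comparisons; at an unadjusted p under 0.05 there were 2, both between day 6 and day 0, where 27 of all 199 tested miRNAs passed it. miR-145 and miR-297c were detected on no array. The list's median log2 difference, mature minus immature, was 0.19 against 0.04 over all 199, with 9 of 13 above 0. The highest were miR-335-5p at 1.01 ± 0.57 (SE) and miR-199a-5p at 0.59 ± 0.64 (SE), and the lowest were miR-7b at -0.74 ± 0.45 (SE) and miR-7a at -0.63 ± 0.36 (SE). Between day 6 and day 0 the list's median was 0.19 against 0.03, the highest were miR-335-5p at 0.98 ± 0.64 (SE) and miR-222 at 0.62 ± 0.51 (SE), and the lowest were miR-7b at -1.22 ± 0.50 (SE) and miR-7a at -0.95 ± 0.40 (SE), each with a limma adjusted p of 0.343. miR-7a and miR-7b are near-identical in sequence, and whether their probes share signal is uncertain. Of the 16 miRNAs, 4 also stand on the lists for neurons or for fibroblasts and mural cells.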

How the data were processed

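Deposited spot files came from Agilent Feature Extraction 9.5, per the file headers. The authors' deposited values are linear intensities after background subtraction, not scaled between arrays per the file headers; the deposited series table holds the same intensities, with a largest difference of 0. Its columns are not centred, and their medians ran from -6.93 on day 0 replicate 1 to 3.28.

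Outlier-flagged spots (3.13%) were dropped and spots averaged per probe. Arrays were divided by the 75th percentile of the 91 probes that every array detected. Signals under the 5th percentile of detected values, 18.4, were raised to it, and log2 was taken of the deposited intensities after that. A miRNA took its brightest probe by mean log2. Mouse miRNAs with detection on 3 arrays or more, 199 in number, went into limma 3.58 in R 4.3, and calls needed an adjusted p under 0.05. Confidence intervals are 95%. Figures used Python 3.11 and matplotlib 3.10. The number of arrays limits precision.

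The text names the 4 members, the 3 tested miRNAs most like each of 3 members, and the 2 highest and 2 lowest of a lineage list. Members and lists were chosen with earlier results of these data known. Alternatives covered scaling, background, probe summary, floor, filter, outlier spots, weights, blocks, the arrays in the fit and each array left out. Between same-numbered replicates, the deviations from the day means had r from -0.71 to 0.32. Deviations within a day of 2 or 3 arrays are bound to one another, so these values cannot exclude pairing. The reported fit pairs no samples. Promoter sequences were not used here.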

Additional observations from a re-analysis of the deposited data

How the results depend on the processing

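Over 25 settings no log2 difference of a member was called. The smallest limma adjusted p was 0.249, for miR-138, mature against immature, when arrays were scaled on control probes. No member was detected on all 8 arrays, so that filter gave them no log2 difference. The correlations among miR-219, miR-338-3p and miR-138 kept their sign and an exact permutation p under 0.05 in 20 settings each, with r from 0.858 to 0.991. The settings with no detection filter and with detection on all 8 arrays cannot change these correlations, so they add no support. The signals of day 0 replicate 1 limit what can be said of low levels on day 0.

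Without 1 of the day 1 arrays, the lone sample is assumed to vary like the other groups. Leaving out 1 array in turn moved the log2 differences of the members, and signs changed in these ranges. From day 0 to day 6, miR-219 ranged from -0.18 to 1.79 and miR-138 from -0.0803 to 1.64, both lowest without day 0 replicate 1, and miR-338-5p from -0.0801 to 0.26. From day 1 to day 6, miR-219 ranged from -0.28 to 2.24, miR-338-3p from -0.60 to 2.897, miR-138 from -0.22 to 2.34 and miR-338-5p from -0.16 to 0.26. From day 0 to day 1, miR-219 ranged from -1.61 to 0.90, miR-338-3p from -1.41 to 2.09, miR-138 from -1.59 to 0.97 and miR-338-5p from -0.12 to 0.28. Mature minus immature, miR-338-5p ranged from -0.12 to 0.22, while miR-219 (0.17 to 1.43), miR-338-3p (0.44 to 2.19) and miR-138 (0.26 to 1.55) stayed above 0. The number of called miRNAs ranged from 0 to 11 for mature against immature, 11 without day 0 replicate 1, and from 1 to 7 for day 6 against day 0. The number of other miRNAs more variable than the least variable of the 3 ranged from 0 to 5, the highest without day 0 replicate 2.

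The sign of miR-338-5p also changed with scaling over all probes (mature against immature -0.0351, day 6 against day 1 -0.11), with no scaling (-0.0804 mature against immature, -0.0608 for day 6 against day 0 and -0.10 for day 6 against day 1), with normexp (-0.13 for day 1 against day 0) and with the mean of detected probes (-0.0233 for day 6 against day 0, -0.0796 for day 1 against day 0). Array weights turned miR-338-3p to -0.31 for day 1 against day 0. The cause was not tested.

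Calls for mature against immature, 4 in the reported fit, numbered 0 with normexp, scaling over all probes, no detection filter, the mean of detected probes, the replicate block, Feature Extraction's own gene signal and detection on all 8 arrays. They numbered 2 unscaled, 11 under array weights and 17 when arrays were scaled on control probes. For day 6 against day 0, 8 in the reported fit, they numbered 1 with the replicate block, the gene signal, the mean of detected probes, scaling over all probes and detection on all 8 arrays, 2 with no scaling and with normexp, 3 with only the arrays of both days, 4 with the doubled floor and with no detection filter, and 16 scaled on control probes. For day 6 against day 1, 0 in the reported fit, they numbered 3 with the doubled floor and when scaled on control probes, 1 with detection on all 8 arrays and 9 with array weights. For day 1 against day 0, 3 in the reported fit, detection on all 8 arrays gave 1. With the replicate block, miR-338-3p stood at 1.33 mature minus immature, and no call of a member changed. The scaling itself moved the median log2 difference over all tested miRNAs, mature minus immature, from 0.04 to -0.05 over all probes, -0.28 without scaling and 0.55 on control probes. The members moved too. Without scaling, the mature minus immature log2 difference was 0.29 for miR-219, 0.41 for miR-138 and 0.98 for miR-338-3p. On control probes it was 1.28, 1.40 and 1.87 in the same order.

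The count of other miRNAs more variable than the least variable of the 3, which was 0, was 1 when scaled on control probes, with summed probes, with outlier spots kept and with the gene signal, 2 with scaling over all probes, 3 with the mean of detected probes and with the doubled floor, 4 with no detection filter and 9 with normexp. The gene signal and the settings for this count were chosen after seeing the data.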

Other observations

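The star strand miR-138*, from the arm opposite miR-138, has probes of its own and was detected on 5 of 8 arrays. The hairpins of Mir138-1 and Mir138-2 differ in that arm, and which of them miR-138* stands for was not checked. Its scaled signal was -8.62, 34.4 and 17.5 at day 0, 20.9 and 6.91 at day 1, and 27.5, 12.4 and 25.1 at day 6, in replicate order. The 4 highest arrays, day 0 replicate 2, day 1 replicate 1 and day 6 replicates 1 and 3, were also the 4 highest arrays of miR-138. The opposite strand of both miR-219 genes carries annotated miRNAs, Mir219b and Mir219c in GRCm38.p6, whose 3p arms pair with 21 and 20 of the 21 bases of miR-219. The Mir338 hairpin also overlaps another annotated miRNA gene, Mir3065 (chr11:120014767-120014853).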
